A study of Drosophila melanogaster with 6 samples.

Results

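Side, Beat, Dpr and DIP proteins are immunoglobulin-domain molecules on the surface of Drosophila neurons and their target cells. Beat receptors bind Side ligands and Dpr proteins bind DIP proteins, so that the 2 pairs of families form networks of selective partners that guide axons and match synaptic partners. In the developing visual system, photoreceptors and their target neurons carry different members, and the pair of dpr11 in a subset of R7 photoreceptors and DIP-gamma in their amacrine targets is a well-known case. The gene fipi encodes another immunoglobulin-domain protein, named for its part in the timing of the courtship song, and is treated apart from the 4 families.

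The members were all probe sets whose annotation names exactly 1 gene with a current symbol of side or side-, beat-, dpr with a number, or DIP-, plus fipi. These were 89 of 13966 probe sets, for 49 of 10844 named genes: 20 probe sets of 8 side genes, 20 of 13 beat genes, 33 of 19 dpr genes, 15 of 8 DIP genes and 1 of fipi. DIP-kappa, DIP-lambda, beat-Ib, dpr7 and dpr21 had no such probe set, and DIP-epsilon was represented by a probe set shared with another gene, so these 6 genes were not analysed here. Of the 49 genes, 27 had several probe sets, which share a transcript source and are not independent of each other.

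Transcripts were measured on 6 single-colour Affymetrix arrays of eye-antennal imaginal discs, the larval epithelia of the future eye and antenna, from wandering 3rd instar larvae. The 3 arrays called RasV12 are of genotype GMR Gal4/UAS RasV12 and the 3 called sSpi of genotype GMR Gal4/+; UAS sSpi/+, each array from 100 discs of larvae raised at 25 °C. RasV12 is an activated form of the GTPase Ras and sSpi is the secreted form of Spitz, a ligand of the EGF receptor. Both genotypes carry GMR Gal4, which drives the transgene in cells behind the morphogenetic furrow, so the antennal disc and the eye disc ahead of the furrow are present in each sample without being its target. Titles were used for grouping, because the free-text description deposited with the 3 sSpi arrays mentions RasV12 and conflicts with their titles and genotypes. No disc without a transgene was analysed here, and each difference below compares one transgene with the other.

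The arrays had median signals from 39.4 to 41.4. Eye and antennal disc markers were present, with all 10 eye and all 7 antennal genes that have a probe set above the signal filter. The second principal component, with 24.9% of the variance, set RasV12 replicate 1 apart from the other 5 arrays, at 20.3 against -13.4 to 3.93. Values without that array are given below for side, side-V, side-VII and beat-IIIa. Of these, side-V and beat-IIIa had a probe set whose call it changed.

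Between the genotypes, fipi was 2.64-fold higher in RasV12 discs and side-V 1.94-fold lower, and no beat, dpr or DIP probe set passed the test. Tests were made on the 60% of all probe sets with the highest mean signal, and 32 of the 89 recognition probe sets, or 36.0%, were among them. Below that filter lay 8 of 20 side, 15 of 20 beat, 21 of 33 dpr and 13 of 15 DIP probe sets. Of these 32, 2 passed an adjusted p of 0.05 in limma (6.25%), 1 in each direction. Over all 8380 probe sets tested 219 passed, which is 2.61%, with 1.3% higher and 1.31% lower in RasV12. A count of 2 is too small to set the recognition genes apart from that background. The median log2 difference (RasV12 minus sSpi) of the 32 was -0.11, with 12 above 0 and 20 below, against a median of -0.01 over all 8380.

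**Figure D1:**
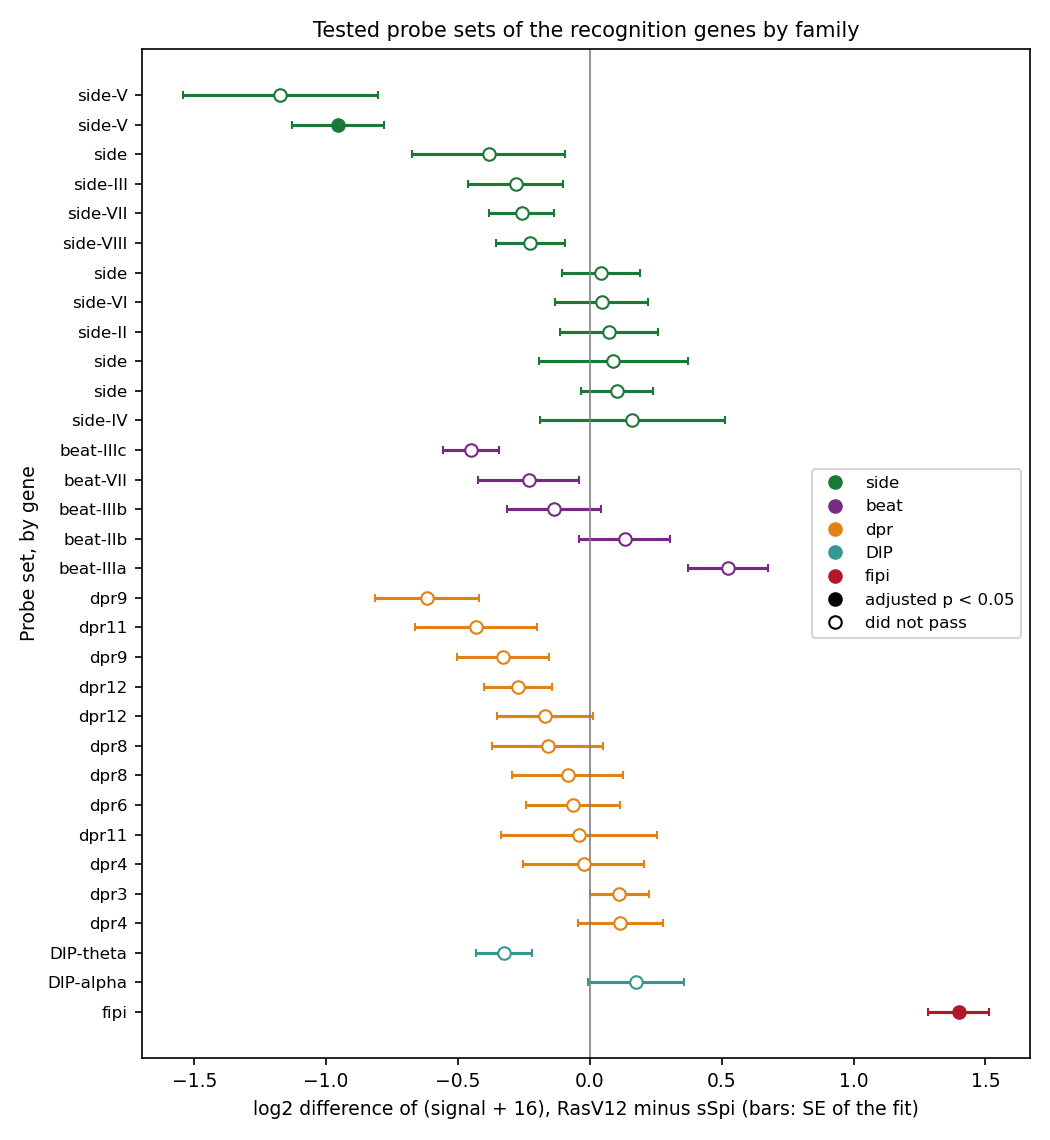
Log2 difference of (signal + 16), RasV12 minus sSpi, for the 32 tested probe sets, grouped and coloured by family, each labelled by its gene; bars are the standard error of the fit and filled points passed an adjusted p of 0.05. The fipi point lies far to the right at 1.40, the 2 side-V points lie furthest to the left, and the other points lie between -0.62 and 0.53.

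The fipi signal was 399, 319 and 324 on RasV12 replicates 1 to 3 and 122, 114 and 128 on sSpi replicates 1 to 3. Every RasV12 array was above every sSpi array, and the gap between the groups was larger than the spread within either. The means were 347 ± 44.6 and 121 ± 6.75 (SD, n = 3), and RasV12 exceeded sSpi by 1.40 ± 0.12 on the log2 scale (SE, limma adjusted p = 0.00055). The fipi difference kept its direction and its call in each of 16 other settings of the analysis, between 1.15 and 1.51 with adjusted p of at most 0.0068. The gene has a single probe set, so no second probe set of the array checks it. On whole-disc RNA, more RNA per cell and more cells of a type that makes it cannot be told apart, here and for every gene below.

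Among the side genes, which encode the ligands of the Beat receptors, the signal of side-V was low in RasV12 on every probe set that measures it. Its brightest probe set read 70.0, 118 and 123 on the RasV12 arrays and 217, 210 and 206 on the sSpi arrays. The 2 groups did not overlap, the sSpi arrays lay close together, and RasV12 replicate 1 was the lowest of the 6. The means were 104 ± 29.3 and 211 ± 5.08 (SD, n = 3), which puts the log2 difference at -0.96 ± 0.17 (SE of the fit, limma adjusted p = 0.021). The second side-V probe set read 14.1, 72.8 and 81.0 in RasV12 and 143, 117 and 125 in sSpi. It had the same order of groups, with RasV12 replicate 1 again lowest, and its log2 difference, -1.17 ± 0.37, missed the threshold (limma adjusted p = 0.16). The third lay below the signal filter, at 3.43, 6.94 and 5.29 in RasV12 and 29.3, 16.3 and 9.36 in sSpi, also without overlap.

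The size of the side-V difference depended on RasV12 replicate 1. Without that array the first probe set differed by -0.73 and passed, and the second by -0.63 and passed as well (limma adjusted p = 0.024). Conversely, the call of the first probe set ended without any single sSpi array, at adjusted p from 0.071 to 0.094, and with no signal filter (0.065), while its log2 difference stayed between -0.97 and -0.94 in these settings.

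The other 7 side genes had at least 1 tested probe set each, and none passed. The gene side itself, whose product on muscle attracts motor axons, has 6 probe sets, of which 4 were tested, with log2 differences from -0.38 to 0.10. The probe set at -0.38 ± 0.29 read 5.02 on RasV12 replicate 1, against 20.1 to 37.8 on the other arrays, and differed by -0.05 without that array. The brightest probe set of side read 41.6, 42.0 and 40.4 in RasV12 and 42.2, 38.4 and 32.0 in sSpi. Its groups overlapped, and its log2 difference was 0.10 ± 0.14 (limma adjusted p = 0.78). The side-VII signal was 89.5, 119 and 113 in RasV12 and 130, 132 and 129 in sSpi. These groups did not overlap, but the log2 difference of -0.26 ± 0.12 did not pass (limma adjusted p = 0.36) and was -0.15 without RasV12 replicate 1. The same held for side-VIII, at 30.9 to 36.9 in RasV12 and 39.99 to 43.9 in sSpi, with an adjusted p of 0.47. The log2 differences of side-II, side-IV and side-VI, the last a partner of Beat-V proteins, lay between 0.04 and 0.16, and that of side-III was -0.28. The side-IV probe set, for a ligand of Beat-IIb, spread widely within RasV12, from 8.03 on replicate 1 to 50.9 on replicate 3, and its difference of 0.16 had a standard error of 0.35.

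**Figure D2:**
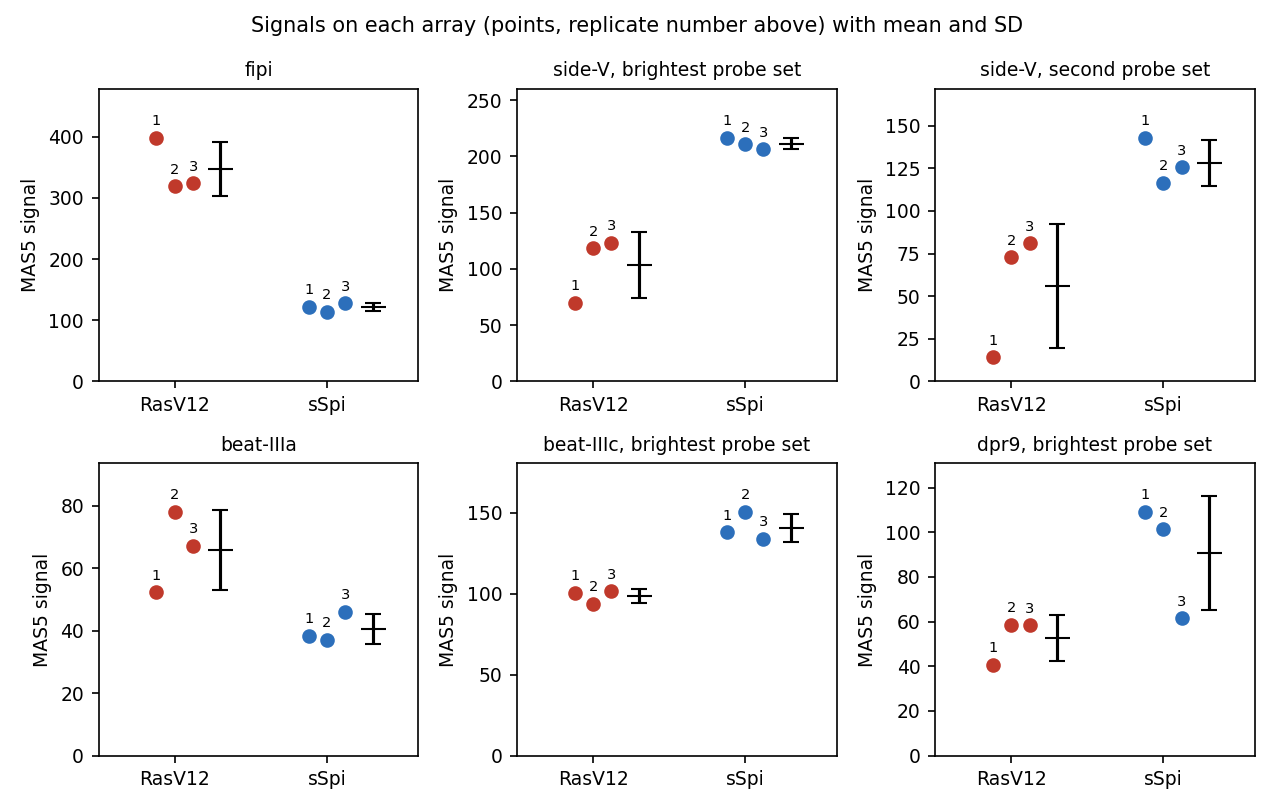
MAS5 signal on each array for fipi, the 2 brighter side-V probe sets, beat-IIIa, beat-IIIc and dpr9; points are arrays with their replicate number, and the bar beside them gives mean and SD of 3 arrays. RasV12 replicate 1 is the highest array for fipi and the lowest for both side-V probe sets and dpr9, and the groups do not overlap in any panel.

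Of the 13 beat genes, which encode the Side receptors, 5 had a tested probe set and none passed in limma, over all genes; 2 had an unadjusted p under 0.05, beside 15.2% of all probe sets. These 2 belong to the beat-III group and went in opposite directions. The beat-IIIc signal was 101, 93.9 and 102 in RasV12 and 138, 151 and 134 in sSpi. All RasV12 values were below all sSpi values, and the log2 difference was -0.45 ± 0.11 (SE, n = 3), with a limma adjusted p of 0.062 that misses the threshold. A second beat-IIIc probe set, below the filter with a mean of 8.60, had the same order without overlap. The beat-IIIa signal was 52.3, 78.0 and 67.3 in RasV12 and 38.4, 37.2 and 46.1 in sSpi, so here RasV12 was the higher group, again without overlap. Its log2 difference was 0.53 ± 0.15 (limma adjusted p = 0.13), and without RasV12 replicate 1 it was 0.65 and passed (0.038). In the reference annotation beat-IIIb, beat-IIIa and beat-IIIc follow each other on 1 chromosome arm, with 4 protein-coding genes wholly between the first 2 and 5 between the last 2. The third of them, beat-IIIb, differed by -0.14 ± 0.18 with overlapping groups.

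The other tested beat genes were beat-IIb, at 0.13 ± 0.17, and beat-VII, at -0.23 ± 0.19 (log2 difference, SE). The 2 probe sets of beat-VII disagreed: the brighter was lower on average in RasV12, and the dimmer, below the filter, read 6.06, 31.0 and 37.5 in RasV12 and 7.82, 16.2 and 5.83 in sSpi. The remaining 8 beat genes lay below the signal filter on every probe set. Among them was beat-Ia, the receptor of motor axons for Side, at 11.4 to 14.2 in RasV12 and 2.02 to 12.6 in sSpi.

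Of the 19 dpr genes, 7 had a tested probe set, 12 probe sets in all, and none passed in limma. Of the 12, 1 had an unadjusted p under 0.05, beside 15.2% of all probe sets. That probe set was the brightest of dpr9, at 40.7, 58.7 and 58.3 in RasV12 and 109, 101 and 61.5 in sSpi. The groups did not overlap, but sSpi replicate 3 lay just above the RasV12 arrays, and the log2 difference of -0.62 ± 0.20 had a limma adjusted p of 0.16. The other tested dpr9 probe set differed by -0.33 ± 0.17 with overlap, and the third, below the filter, read 1.26, 2.50 and 4.004 in RasV12 and 15.4, 7.32 and 21.6 in sSpi. All 3 dpr9 probe sets were thus lower on average in RasV12, and none was called in any of the settings in which it was tested.

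The brighter dpr12 probe set, for a partner of DIP-delta, read 38.1, 49.1 and 45.7 in RasV12 and 56.9, 55.6 and 57.5 in sSpi. These groups did not overlap either, with a log2 difference of -0.27 ± 0.13 (limma adjusted p = 0.36), while the second dpr12 probe set overlapped. Both tested probe sets of dpr11 overlapped between genotypes, with log2 differences of -0.43 ± 0.23 and -0.04 ± 0.30. The one tested probe set of dpr6, a partner of DIP-alpha, gave -0.06 ± 0.18. The differences of dpr4 and dpr8 lay between -0.16 and 0.12. The dpr3 probe set with a mean signal of 1003 is of the kind that Affymetrix marks as shared by similar transcripts, and the other 2 dpr3 probe sets had means of 7.58 and 1.88, so its signal was not taken as that of dpr3 alone. It differed by 0.11 ± 0.11. In all, 10 of the 12 tested dpr probe sets had a log2 difference below 0, as did 51.4% of all probe sets tested, and the family median was -0.12. Several of these 10 come from the same gene, and the shared dpr3 probe set is among those above 0.

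Of the 8 DIP genes, 2 had a tested probe set, and neither passed in limma. Of these 2, 1, DIP-theta, had an unadjusted p under 0.05, beside 15.2% of all probe sets. DIP-theta read 120, 127 and 108 in RasV12 and 152, 151 and 153 in sSpi. The sSpi arrays were nearly equal and all above the RasV12 arrays, with a log2 difference of -0.33 ± 0.11 (limma adjusted p = 0.17). The second DIP-theta probe set lay below the filter and was higher on average in RasV12, at 18.9 ± 2.97 against 14.8 ± 6.49 (SD, n = 3), with overlap. DIP-alpha differed by 0.17 ± 0.18 with overlapping groups. DIP-beta, DIP-delta, DIP-eta, DIP-gamma, DIP-iota and DIP-zeta lay below the filter on every probe set, with mean signals up to 23.4, that of DIP-iota, which is next to the limit. The DIP-gamma signal was 31.7 on RasV12 replicate 1 and between 8.34 and 15.0 on the other 5 arrays. Of known partners, dpr6 and DIP-alpha were both tested, as were side-IV and beat-IIb, and none of these passed. For dpr11 with DIP-gamma, dpr12 with DIP-delta, dpr10 with DIP-alpha and side with beat-Ia, 1 partner at least lay below the filter.

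**Figure D3:**
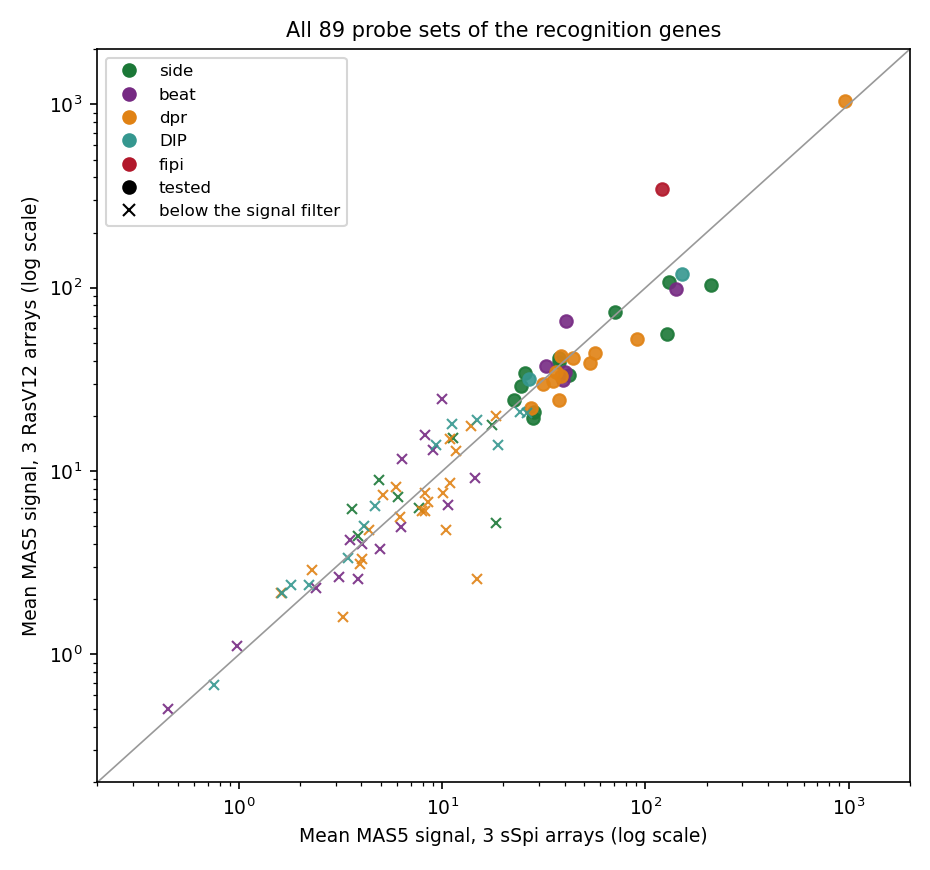
Mean MAS5 signal of the 89 probe sets in sSpi (x) and RasV12 (y), both on log axes, coloured by family; circles were tested, crosses lay below the signal filter, and the line marks equality. Most crosses lie below a signal of 20, fipi stands above the line, and side-V is the green circle furthest right.

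The 57 probe sets below the filter had a median mean signal of 6.97. Their groups did not overlap for 8 of them (14.0%, against 11.7% of all 5586 probe sets below the filter). Of these 8, 6 were lower in RasV12 (10.5%, against 4.56% of all below the filter) and 2 higher (3.51%, against 7.16%). None of the 57 passed when all 13966 probe sets were tested in limma. Just outside the filter were dpr13 (19.2), DIP-delta (22.6) and DIP-iota (23.4), and just inside were side-II (23.4), side (23.8) and side-III (24.7), as mean signals over 6 arrays. Among the 32 tested, groups did not overlap for 10, of which 8 were lower in RasV12. Over all probe sets tested, 21.3% did not overlap in either direction and 11.1% did so with RasV12 lower.

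The arrays did not contribute evenly. The 32 tested probe sets come from 23 genes, so some genes count more than once here. RasV12 replicate 1 was the lowest of the 6 arrays for 15 of the 32, or 46.9%, against 21.0% of all 8380. It was the highest for 2, or 6.25%, against 24.3% of all 8380. With that array left out, the counts were again 12 above 0 and 20 below, not all of them the same probe sets, with a median of -0.10, and 4 probe sets passed: fipi, both tested side-V probe sets and beat-IIIa. With RasV12 replicate 1 and sSpi replicate 2 both left out, 3 passed: fipi and both side-V probe sets.

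Marker lists of other cell types moved with the genotypes in part. The summed signal of 11 glial genes was 1271 to 1447 in RasV12 and 1905 to 2004 in sSpi, without overlap. Most of that sum came from Gli alone, with mean signals of 738 in RasV12 and 1189 in sSpi. Of 7 tested, 2 fell (28.6%, against 2.61% of all probe sets), svp and Gli, of which svp is also a photoreceptor gene. The other 9 glial genes summed to 480 to 561 in RasV12 and 517 to 627 in sSpi, which overlap. Of these 9, moody (-0.60 ± 0.18) and Mdr65 (-0.46 ± 0.16) were lower in RasV12 without overlap. In the other direction, nrv2 (0.58 ± 0.19) and gcm, below the filter, were higher without overlap. None of these passed (limma adjusted p = 0.13 for moody, 0.20 for Mdr65 and 0.18 for nrv2). Among the 7 tested glial genes, 4 were lower (svp, Gli, moody and Mdr65) and 1 higher (nrv2) in RasV12 without overlap. Over all probe sets tested, 21.3% did not overlap in either direction and 11.1% did so with RasV12 lower. The median log2 difference of the 7 glial genes was -0.46. For repo, the defining transcription factor gene of glia, the log2 difference was -0.30 ± 0.15 (limma adjusted p = 0.40). The summed signal of 13 neuron and photoreceptor genes was 1111 on RasV12 replicate 1, against 1513 and 1549 on RasV12 replicates 2 and 3 and 1490 to 1570 on the sSpi arrays. None of the 10 tested passed in limma, and 1 had an unadjusted p under 0.05 (15.2% of all probe sets did). That gene, the synaptic active zone gene brp, read 3.31 on RasV12 replicate 1, against 29.7 to 49.9 on the other 5 arrays. Sums of 9 hemocyte genes (687 to 932 in RasV12, 589 to 927 in sSpi) and 13 muscle genes (3336 to 4197 and 3510 to 4375) overlapped between genotypes. Most of the muscle sum came from Act87E, with a mean signal of 2385. Its probe set, like that of Act79B, is of the kind marked as shared by similar transcripts, so this sum may not measure muscle transcripts alone. From the hemocyte list lz rose (1 of 7 tested, 14.3%, against 2.61% of all probe sets), and lz is also an eye disc gene. From the muscle list sls rose (1 of 9 tested, 11.1%). The 9 salivary gland genes were highest on sSpi replicate 2, with a sum of 962 against 177 to 293 on the other arrays; of 6 tested, 0 passed in limma and 0 had an unadjusted p under 0.05. The 17 ecdysone response genes, a measure of stage, summed to 4358, 7727 and 8913 in RasV12 and 3036 to 5163 in sSpi. The largest part of each sum was ImpE2, at 2472, 4522 and 5412 in RasV12 and 1375 to 2972 in sSpi. Of 14 tested, 0 passed in limma. Of those 14, 5 had an unadjusted p under 0.05 (15.2% of all probe sets did), all higher in RasV12, and 12 were above 0, with a median log2 difference of 0.41. Of the disc markers, ato rose and ro and ey fell among 10 eye genes (30%), and al and Lim1 fell among 7 antennal genes (28.6%). Over all probe sets tested, 2.61% passed. The defining genes elav of neurons, repo of glia and Hml of hemocytes were above the signal filter. The hemocyte genes NimC1 and srp and the muscle gene Act88F lay below it, and no gene was at 0. NimC1 was lower in RasV12 without overlap, at 3.04 to 6.54 against 17.3 to 25.2 in sSpi, while the groups of srp overlapped. With no signal filter NimC1 passed in limma (adjusted p = 0.026), and RasV12 minus sSpi was -0.86 ± 0.13 for it. The part of cell composition or stage in the differences of fipi and side-V was not tested.

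Other neuronal surface recognition genes also differed between the genotypes. Of a list of 65 axon guidance and adhesion genes, 57 had a probe set and 49 were tested with their brightest one. Of these 49, 5 passed (10.2%, against 2.61% of all probe sets), 3 higher and 2 lower in RasV12, and the list median was -0.03. The gene trn, which encodes a leucine-rich repeat adhesion protein, read 580, 483 and 464 in RasV12 and 225, 146 and 209 in sSpi. Its groups lay far apart, 1.34 ± 0.16 on the log2 scale (SE, limma adjusted p = 0.0028). The netrin receptor gene fra and klg, an immunoglobulin-domain gene of R7 photoreceptor development, rose by log2 differences of 0.67 ± 0.13 and 0.73 ± 0.14 (limma adjusted p = 0.028 for each). The second klg probe set gave 0.78 ± 0.19 and did not pass. Nrg, an L1-type adhesion molecule, fell, at 467, 449 and 464 in RasV12 and 649, 694 and 739 in sSpi, as did kek1, an inhibitor of the EGF receptor, at -0.90 ± 0.13. The calls of trn and kek1 held in every other setting, while those of fra and klg ended with the replicate number as a block, with no signal filter, and when RasV12 replicate 2 or 3 or any sSpi array was left out. That of Nrg ended with the block and on leaving out RasV12 replicate 2 or either of sSpi replicates 2 and 3.

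**Figure D4:**
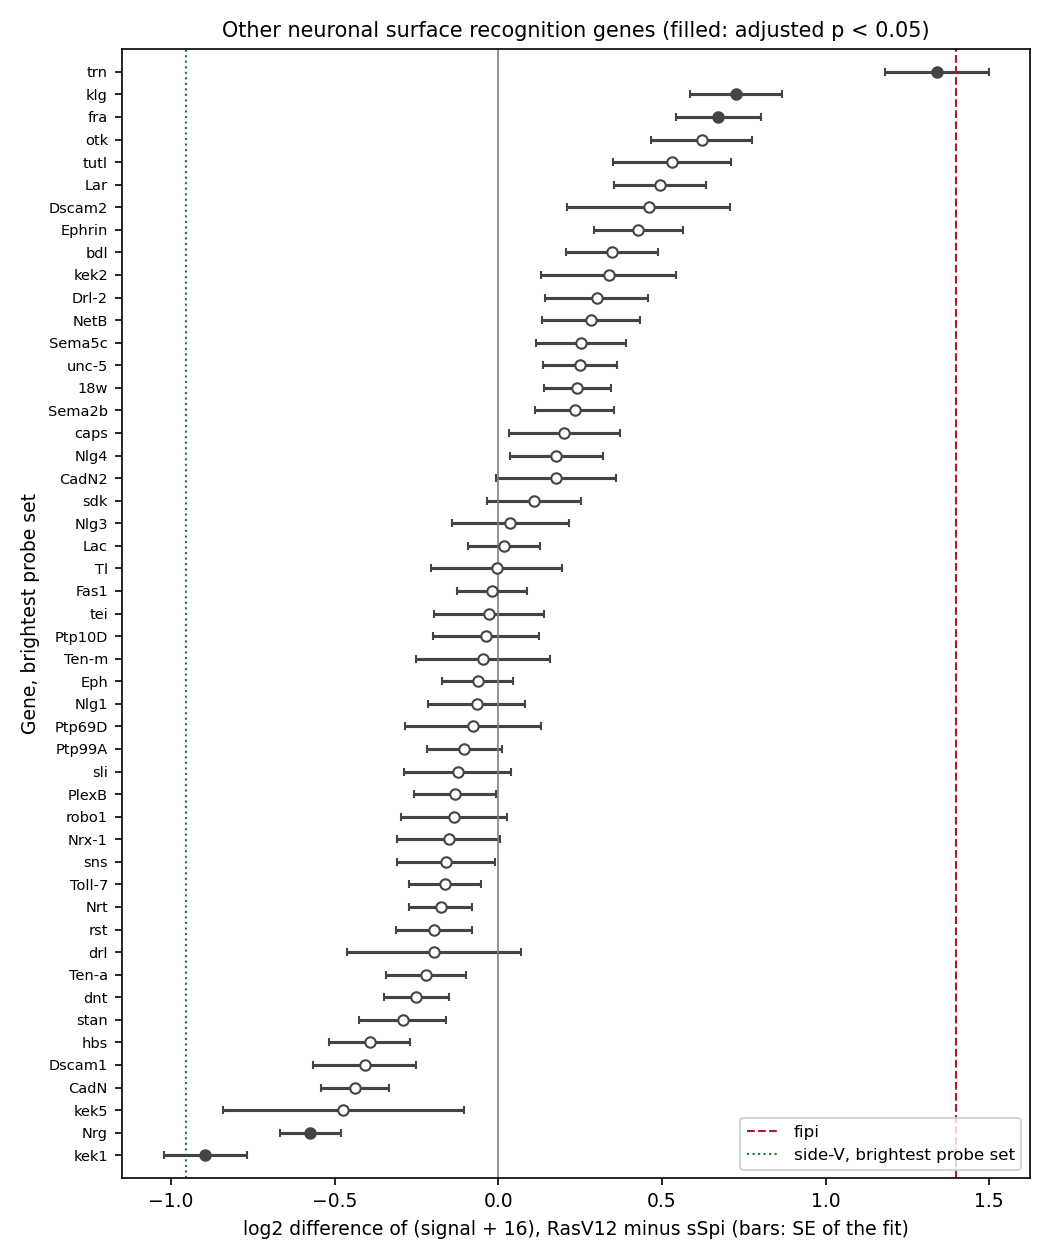
Log2 difference of (signal + 16), RasV12 minus sSpi, for 49 other neuronal surface recognition genes, each by its brightest probe set; bars are the standard error of the fit, filled points passed an adjusted p of 0.05, and the dashed and dotted lines mark fipi and side-V. Of the 49, trn comes closest to fipi at 1.34, and kek1 lies nearest to side-V at -0.90.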

How the data were processed

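The authors deposited intensities: each probe set has 1 linear MAS5 signal. The submitters' processing notes name MAS5; its version and a genome build are not given in the sources used here. All arrays shared a mean of 100.0 once 2% was trimmed at either end, a sign of scaling to 1 level before deposit. Per the labels' protocols, cRNA with biotin label came from 5 ug of total RNA. Controls (44 probe sets) were left out. Among the other 13966, 12443 carried 1 gene symbol, 327 several and 1196 none, and identifiers brought 12394 symbols up to date with the NCBI table for Release 6 plus ISO1 MT. Columns that belong to no sample numbered 0.

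Values were analysed as log2(signal + 16), which understates the change of dim genes. Probe sets in the upper 60% by mean signal (above 23.4) were fitted with lmFit and eBayes with a trend in limma 3.58.1 (R 4.3.3). Tests are two-sided, p-values were adjusted by Benjamini-Hochberg across 8380 probe sets, and the threshold is 0.05. Folds are on that log2 scale. Titles call the arrays biological replicates, and their number limits the precision. The fit was tested on simulated data.

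Members, lists and alternatives were chosen with earlier results of these data known. Every member may be named; full statistics go to probe sets past the threshold, the 2 next by p in each family, and side. In the other lists, where a gene counts by its brightest probe set, genes past the threshold are named. Genes named there without having passed were chosen after their values were seen. They are repo, brp, moody, Mdr65, nrv2, gcm, elav, Hml, NimC1, srp and Act88F. Arrays with the same number showed no shared deviation (r = -0.11, -0.04 and -0.14), so no pairing was used. Alternatives were pseudocounts of 1 and 64, no filter, the upper 40%, quantile normalization, scaling to the median, no trend in eBayes, a block for the replicate number, 1 probe set per gene, leaving out each array, and leaving out RasV12 replicate 1 with sSpi replicate 2. The plots used matplotlib 3.10.9 (Python 3.11.15).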

Additional observations from a re-analysis of the deposited data

How the results depend on the processing

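Of the 2 recognition probe sets called, fipi and side-V, both were called with other pseudocounts, the upper 40% of probe sets, other scaling, no trend, the replicate number as a block and 1 probe set per gene. The count was 1, fipi alone, with no signal filter, and between 1 and 4 with single arrays left out. Over all probe sets the count of 219 was 138 with no filter, 159 with the replicate block, and between 86 and 369 with single arrays left out. Of the other neuronal recognition genes, 5 passed in the main analysis, 3 with no filter, 2 with the replicate block, and between 2 and 8 with single arrays left out. The replicate block changed no call of a recognition gene. Of the 32 tested recognition probe sets, 18 kept their direction in every setting and 14 changed it in at least 1. The 14 had log2 differences of at most 0.38 in size, and none passed in any setting. With single arrays or the pair RasV12 replicate 1 and sSpi replicate 2 left out, the log2 differences of 3 probe sets of side ran from -0.66 to 0.10, from -0.11 to 0.45 and from -0.069 to 0.12; side-II ran from -0.038 to 0.21, side-IV from -0.11 to 0.72 and side-VI from -0.090 to 0.21. In the same settings beat-VII ran from -0.34 to 0.0082, the second dpr12 probe set from -0.28 to 0.022, the dpr8 probe sets from -0.22 to 0.14 and from -0.30 to 0.049, the dpr4 probe sets from -0.030 to 0.20 and from -0.25 to 0.17, dpr6 from -0.18 to 0.10 and the brighter dpr11 probe set from -0.43 to 0.17. That dpr11 probe set was also at 0.018 with a pseudocount of 1. Most beat, dpr and DIP probe sets lay below the signal filter, and for these no difference was tested in the main analysis.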
